A study of Eptatretus atami with 13 samples.

Results

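The gene models described here are those with a high transcript level in both kidney and intestine of the brown hagfish *Eptatretus atami* and a clearly lower one in every other organ sampled. They were chosen from the expression values themselves. The lower of the kidney and intestine levels had to reach 5 FPKM (fragments per kilobase of exon per 1000000 counts assigned to gene models) and 2 times the highest of the other 11 organs. 42 of 37562 gene models met both limits, which is 0.112% of all models and 0.515% of the 8157 models with at least 5 FPKM in both organs. Because the levels chose the members, they are given as a description without a test. 1 model named by the selection rule was set aside.

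RNA was sequenced from 13 organs, with 1 library per organ: kidney, intestine, liver, gall bladder, gills, skin, slime gland, heart, tongue skeletal muscle, brain, ovary, blood cells and adipose tissue. The labels describe all libraries as wild type, with the cell type field set to whole organism and the treatment field to normal embryonic development, and give no age or sex. Whether organs came from the same animal is not stated, and with 1 library each there is no replicate error, so intervals below cover counting error only. The assigned counts ranged from 18800367 to 39077785 per library, with 25390865 in kidney and 29215712 in intestine. In bulk organs, fewer cells of a type and less RNA per cell cannot be told apart.

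Of the marker genes used to check the labels, *MIOX*, an inositol oxygenase of the mammalian kidney tubule, stood at 38.2 FPKM in kidney and at 0 in intestine. *LCT-1*, named for lactase, stood at 515.6 FPKM in intestine and 0.117 FPKM in kidney. The library labelled adipose tissue resembled that of brain, with a correlation of 0.988 between their log2(FPKM + 1) values over all models, and is called the adipose-labelled library below. The 10 highest models took 67.8% of the counts in liver, 48.9% in tongue muscle, 36.4% in skin, 33.6% in slime gland, 21.3% in intestine and 7.54% in kidney, which lowers the FPKM of all other models where this share is large.

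The vertebrate kidney tubule and the gut lining are both epithelia that take up solutes from a lumen. In mammals, both carry microvilli on their luminal face, the brush border, which bears peptidases that trim peptides and carriers that bring amino acids, sugars and ions into the cell. A gene used for such a task is often transcribed in both organs and little elsewhere. The hagfish, a jawless vertebrate without a stomach, has both organs.

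Taken as a group, the 42 models held 1.86% of all assigned counts in kidney (exact Clopper-Pearson 95% interval 1.85 to 1.87) and 1.72% in intestine (1.71 to 1.72). Gall bladder came next with 0.147%, followed by ovary with 0.0637%, liver with 0.0576% and brain with 0.0499%. Tongue muscle held the least, 0.00535%. The counts in kidney and intestine were concentrated in a few models, as the 5 largest held 58.2% of the members' counts in kidney and 51.1% in intestine.

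**Figure D1:**
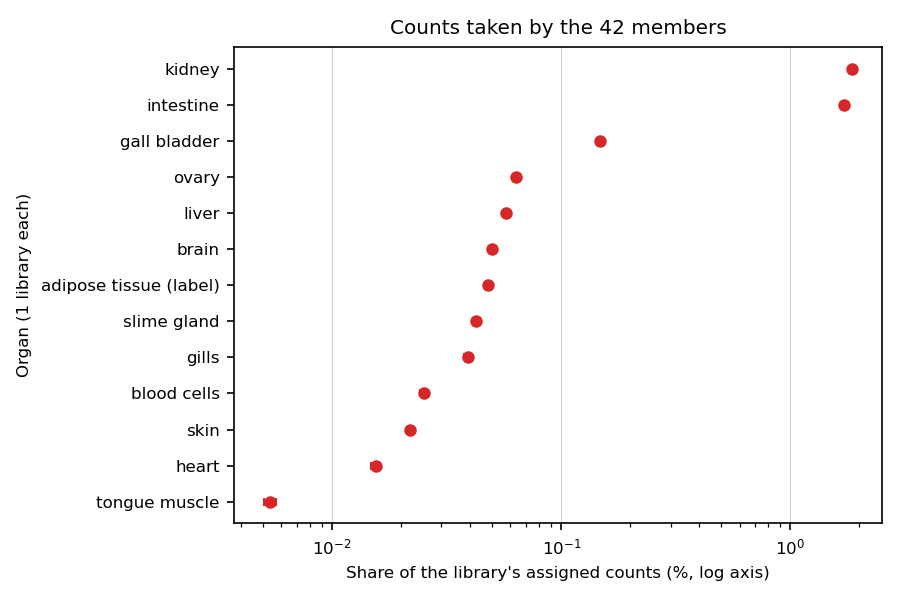
Share of each library's assigned counts that fell on the 42 gene models (%, log axis), with 1 point per organ and bars for the exact 95% counting interval. Kidney and intestine stood at 1.86% and 1.72%, and the next organ, gall bladder, at 0.147%.

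The lower of the kidney and intestine levels ranged from 5.96 to 935 FPKM over the members, with a median of 59.9 FPKM. It was at least 100 FPKM in 16 members and at least 10 FPKM in 39. The smallest count behind any of these levels was 92. The ratio of this lower level to the highest other organ ranged from 2.09 to 392, with a median of 4.41. It was at least 100 in 5 members, at least 10 in 14, and under 3 in 15. In 7 members the counting interval of this ratio reached below 2.

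**Figure D2:**
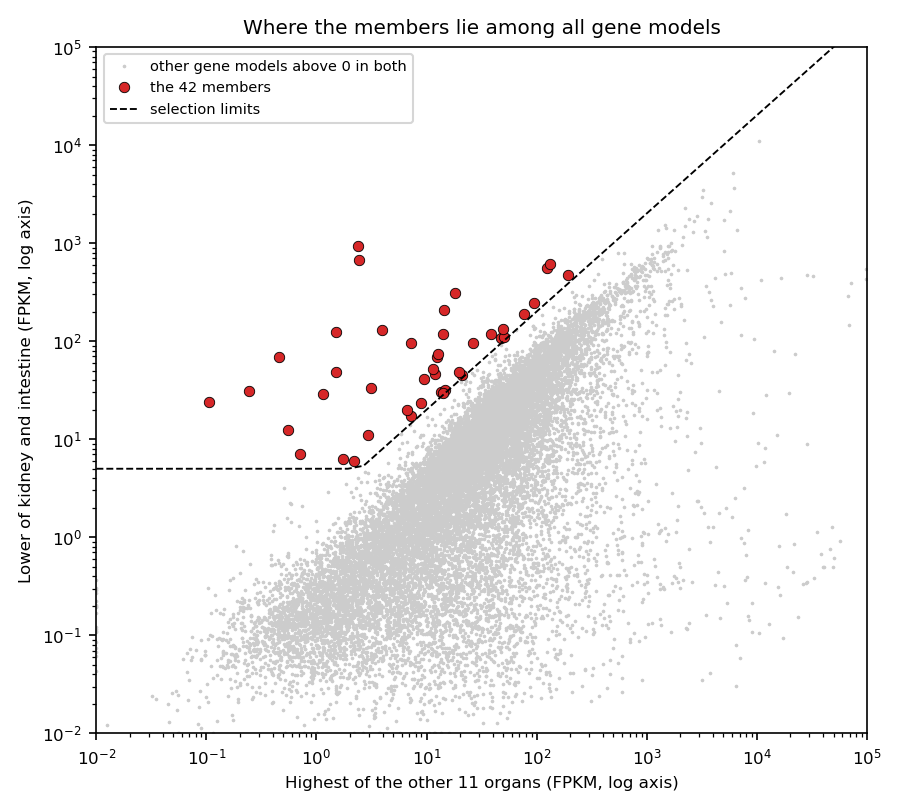
Lower of kidney and intestine (FPKM, log axis) against the highest of the other 11 organs (FPKM, log axis), with 1 point per gene model, the 42 members in red and the selection limits as a dashed line. Most models lie below the line, and the members spread from just above it to a lower level of 935 FPKM with 2.39 FPKM elsewhere.

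A name was at hand for few members. The names used here are the study's matches to genes of other species, and nearly all of them belong to chromosome 1. Of the 42 members, 39 had no symbol, protein domain or protein family, and no role is given to these. *DPP4* (EA23396) carries the name of dipeptidyl peptidase 4, a serine peptidase that removes dipeptides from the start of peptides and sits on the brush border of kidney and intestine in mammals. EA23857, the model next to it, is uncharacterised but was placed in the same protein family. *TYMP-2* (EA22361) carries the name of thymidine phosphorylase, which splits thymidine into thymine and a sugar phosphate. EA36141, on chromosome 1 from 89757767 to 89758705, is listed as uncharacterised.

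*DPP4* is a model of 20 exons on the minus strand, from 25063425 to 25228941 of a scaffold placed on chromosome 1, in coordinates of that scaffold. It stood at 97.5 FPKM in kidney and 48.0 FPKM in intestine, followed by 19.9 in slime gland, 15.5 in liver, 12.2 in gall bladder and 6.32 in skin. The other 7 organs lay between 0.0420 FPKM in blood cells and 2.99 FPKM in gills. Kidney was thus above intestine, with a ratio of 2.03 (95% interval 1.90 to 2.18), and intestine was 2.41 times slime gland (2.18 to 2.66). The peptidase was not restricted to the pair, since 9 of the other 11 organs reached 1 FPKM.

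EA23857 lies 1893 bp upstream of *DPP4*, on the same minus strand, with 5 exons and only 231 bp of exon. It stood at 41.1 FPKM in kidney and 41.6 FPKM in intestine, with 9.42 in slime gland, 9.14 in liver, 7.20 in gall bladder and 3.60 in skin. The order of these 4 organs was the one seen in *DPP4*. The ratio of kidney to intestine was 0.987 (0.767 to 1.27), an interval that holds 1. Whether adjacent models such as this pair belong to a single transcript was not tested.

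*TYMP-2*, on the same scaffold from 31277903 to 31305530, stood at 32.1 FPKM in kidney and 65.2 FPKM in intestine. Liver was next with 14.7 FPKM, then ovary with 1.67 FPKM, and the other 9 organs were under 1 FPKM, 4 of them at 0. The floor set for a count of 0 was 3 counts, or 0.0768 to 0.160 assigned counts per 1000000, depending on the library. Most counts come in pairs, so the level that a 0 allows can be higher than this floor. Intestine was 2.03 times kidney (1.72 to 2.41). The kidney level was 2.18 times that of liver (1.73 to 2.74), so the interval reaches below the selection limit.

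These 3 models depended on how libraries were scaled. With scaling by TMM factors, which set aside the most extreme models and raise the liver library by 1.80 on the log2 scale, liver became the next organ for *DPP4* and EA23857, as it already was for *TYMP-2*. The ratio of the lower of kidney and intestine to liver was then 0.904 for *DPP4*, 1.005 for EA23857 and 0.486 for *TYMP-2*. None of the 3 would be a member on that scale. Across TMM factors, DESeq2 size factors and totals without the 10 highest models, 32 of the 42 members stayed within both limits each time.

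A group of 12 members had the highest levels by the lower of the 2 organs, and most of them were within 4-fold between kidney and intestine. EA83732 led, at 935 FPKM in kidney and 1114 FPKM in intestine. Gills followed with 2.39 FPKM, gall bladder with 1.98, tongue muscle with 1.67 and heart with 1.08, while the other 7 organs were under 1 FPKM and skin, slime gland and blood cells were at 0. With the totals of assigned counts, EA83732 also had the largest gap to any other organ, 392-fold (279 to 569). It stayed the largest with totals without the 10 highest models, at 309. With TMM factors the gap was 139.8, with tongue muscle next, below EA82853 (241), EA19891 (163) and EA03368 (151). With DESeq2 size factors it was 122.7, again below these models.

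EA82853, a single exon of 630 bp beside it, stood at 667 FPKM in kidney and 831 FPKM in intestine. Its next organ was gall bladder with 2.46 FPKM, a gap of 271-fold (176 to 441). EA84399, the third model of that stretch, was at 611 FPKM in kidney and 807 FPKM in intestine. Unlike the other two it was present in all organs, from 9.47 FPKM in tongue muscle to 132 FPKM in brain, and its gap was 4.64-fold (4.42 to 4.88).

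EA80528, on chromosome 17 from 17782322 to 17786452, had the highest kidney level of all members, 2053 FPKM, against 557 FPKM in intestine. Gall bladder held 125 FPKM, ovary 86.5, slime gland 75.9, blood cells 64.0 and gills 59.6, and the lowest value was 6.03 FPKM in tongue muscle. EA29695, on chromosome 5, stood at 695 FPKM in kidney and 478 FPKM in intestine, with gall bladder at 192 FPKM and the adipose-labelled library at 21.3. In both models the next organ was gall bladder, which lay far above the remaining organs only in EA29695.

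EA66375 on chromosome 8 stood at 306 FPKM in kidney and 441 FPKM in intestine, with gall bladder at 18.3 FPKM and every other organ under 1 FPKM. EA83043 on chromosome 15 stood at 336 FPKM in kidney and 246 FPKM in intestine, with gall bladder at 94.7 FPKM and slime gland at 2.07. EA01799 on chromosome 6 stood at 129.7 FPKM in kidney and 199 FPKM in intestine, with no other organ above the 3.97 FPKM of the adipose-labelled library. The first 2 of these were thus shared with gall bladder alone at 10 FPKM, and the last with no organ at that level.

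EA58851, a model of 25 exons on chromosome 4, stood at 691 FPKM in kidney and 188 FPKM in intestine. Liver with 76.9 FPKM, ovary with 65.5 and slime gland with 61.9 lay close together behind the pair, and with TMM factors liver passed the lower organ at a ratio of 0.715. EA64491 on chromosome 8 stood at 248 FPKM in kidney and 134 FPKM in intestine, with brain at 49.6 FPKM, the adipose-labelled library at 41.9 and ovary at 41.0. Both therefore had 3 further organs within a narrow band.

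**Figure D3:**
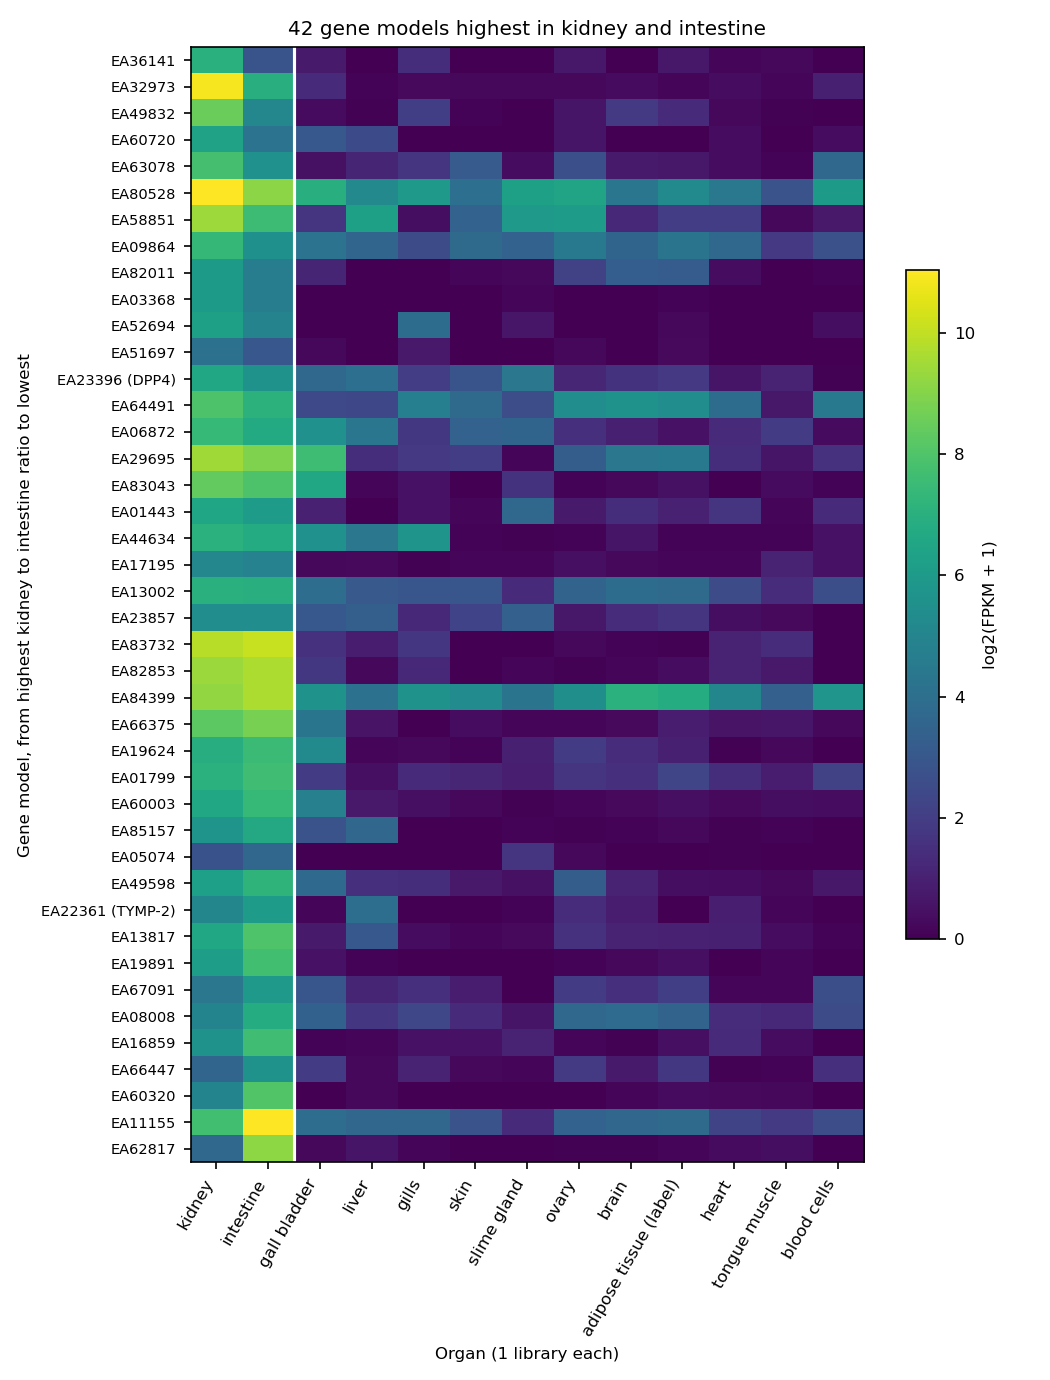
Level of each of the 42 gene models (rows, from the highest to the lowest ratio of kidney to intestine) in the 13 libraries (columns), coloured by log2(FPKM + 1). Kidney and intestine stand to the left of the white line, and values right of it are lower in every row, with EA84399 and EA80528 among the 5 rows where all 11 other organs reached 1 FPKM.

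The members were balanced between the organs in number but not in size. Kidney was the higher of the pair in 21 members and intestine in 21. The counting interval of the ratio lay above 1 in 20 members, below 1 in 20, and held 1 in EA13002 and EA23857. The median log2 ratio of kidney to intestine was 0.032, from -5.55 to 4.34, with quartiles of -0.97 and 1.37. Over the 8157 models with 5 FPKM in both organs the median was 0.34, and 71.9% were higher in kidney. Members within 2-fold of equal numbered 19, or 45.2% against 78.0% of those 8157 models. Members over 4-fold apart numbered 10, or 23.8% against 5.65%. Across members, the log2 levels in kidney and intestine had a Pearson correlation of 0.50 and a Spearman correlation of 0.46, against 0.82 and 0.80 across the 8157 models. These are correlations across genes within a pair of libraries, and genes are not independent replicates.

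The 5 members tilted most to kidney ranged from 82.1 to 1869 FPKM in that organ. EA36141 stood at 127 FPKM in kidney and 6.29 FPKM in intestine, 20.2 times apart (15.5 to 26.9), with gills at 1.73 FPKM and all other organs under 1 FPKM. EA32973, a single exon of 1508 bp on chromosome 7, stood at 1869 FPKM in kidney and 124 FPKM in intestine, 15.05 times apart (14.5 to 15.7), and no other organ exceeded the 1.503 FPKM of gall bladder. EA49832 on chromosome 9 stood at 368 FPKM in kidney and 33.2 FPKM in intestine, 11.1 times apart (10.6 to 11.7), with gills at 3.13 FPKM and brain at 2.69.

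EA60720 stood at 82.1 FPKM in kidney and 17.4 FPKM in intestine, and EA63078 at 219.7 FPKM in kidney and 46.6 FPKM in intestine. Both lie on chromosome 4, and kidney was 4.72 times intestine in each. EA60720 was followed by gall bladder with 7.16 FPKM and liver with 4.55, and EA63078 by blood cells with 11.9 FPKM and skin with 8.09. That intestine set the lower level in all 5 follows from how they were picked.

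The 5 members tilted most to intestine were EA62817, EA11155, EA60320, EA66447 and EA16859. EA62817 on chromosome 4 stood at 577 FPKM in intestine and 12.3 FPKM in kidney, 46.8 times apart (41.3 to 53.3), the widest difference of any member, and every other organ was under 1 FPKM. EA11155 on chromosome 10 had the highest intestine level of all members, 2100.3 FPKM, against 207 FPKM in kidney, 10.2 times apart (9.85 to 10.5). It was present in all organs, from 1.59 FPKM in slime gland to 14.3 FPKM in gall bladder, and alone held 20.8% of the members' counts in intestine.

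EA60320 on chromosome 4 stood at 259.7 FPKM in intestine and 30.7 FPKM in kidney, with 6 of the other organs at 0 and the highest, the adipose-labelled library, at 0.244 FPKM. EA66447 on chromosome 8 stood at 49.0 FPKM in intestine and 11.1 FPKM in kidney, with gall bladder at 2.94 FPKM, ovary at 2.68 and the adipose-labelled library at 2.44. EA16859 on chromosome 11 stood at 199.7 FPKM in intestine and 48.8 FPKM in kidney, with heart at 1.503 FPKM and slime gland at 1.09. Intestine was 8.46 times kidney in EA60320 (7.80 to 9.18), 4.40 times in EA66447 (3.82 to 5.08) and 4.09 times in EA16859 (3.84 to 4.36).

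**Figure D4:**
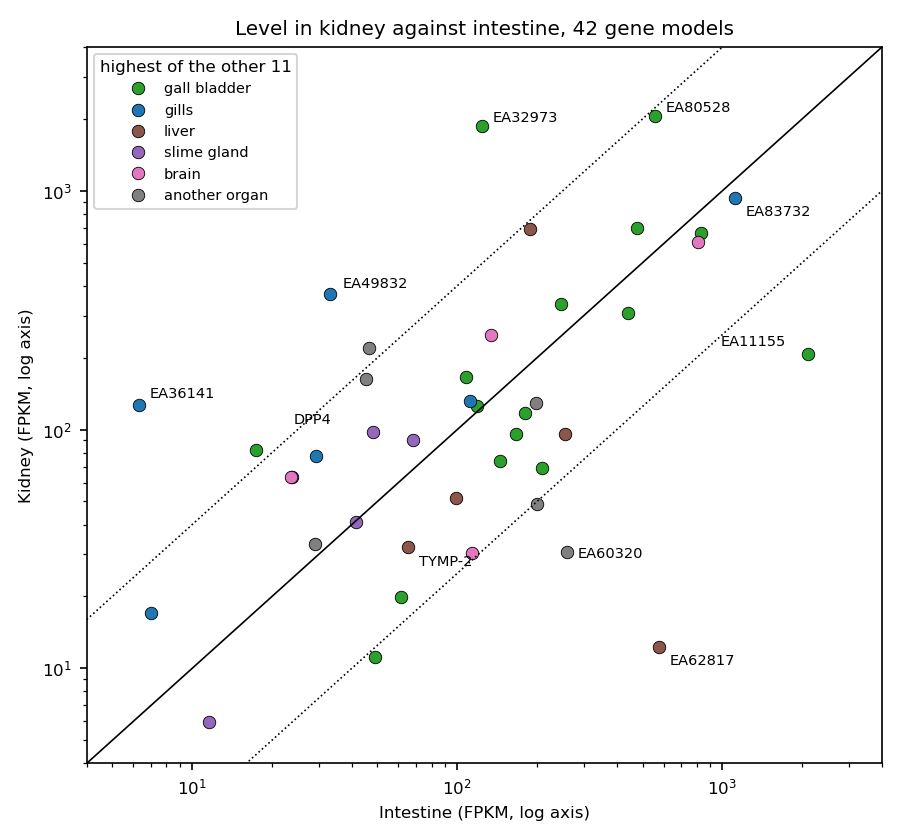
Kidney against intestine (FPKM, both log axes) for the 42 gene models, with 1 point per model coloured by the highest of the other 11 organs, equality as a solid line and 4-fold differences as dotted lines. 5 models lie beyond each dotted line, from EA36141 on the kidney side to EA62817 on the intestine side.

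The members also differed in how far the remaining organs were silent. In 5 members, EA19891, EA60320, EA03368, EA62817 and EA51697, all 11 other organs were under 1 FPKM. EA03368, on chromosome 6 from 111440137 to 111457112, stood at 63.6 FPKM in kidney and 23.8 FPKM in intestine. It was at 0 in 9 of the other organs and at 0.106 FPKM in slime gland, which rests on 4 counts, so its gap of 224-fold has a wide interval (61.7 to 1856). EA19891, a single exon on chromosome 13 from 102409051 to 102411212, stood at 68.8 FPKM in kidney and 209 FPKM in intestine, with gall bladder at 0.454 FPKM and 5 organs at 0. Its gap was 151-fold (88.4 to 285). EA51697, on a scaffold not assigned to a chromosome here, had the lowest counts of these 5, at 17.1 FPKM in kidney and 7.01 FPKM in intestine.

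A larger group of 23 members reached 1 FPKM in 1 to 5 of the other organs, with a median gap of 3.90. Besides models already described, it held EA19624 (118 FPKM in kidney and 181 FPKM in intestine), EA44634 (132 and 111), EA60003 (96.3 and 166), EA13817 (95.6 and 254), EA49598 (73.5 and 144), EA17195 (33.1 and 28.9) and EA82011 (63.3 and 23.6). The next organ was gall bladder for EA19624 with 38.5 FPKM, EA60003 with 26.6 and EA49598 with 12.7. It was gills for EA44634 with 50.9 FPKM, liver for EA13817 with 7.23, tongue muscle for EA17195 with 1.14 and brain for EA82011 with 8.94. EA44634 would leave the set with TMM factors, where liver passes gills and the ratio is 1.49.

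In 9 members, 6 to 10 other organs reached 1 FPKM, with a median gap of 2.48. Among them EA06872 stood at 166 FPKM in kidney and 108 FPKM in intestine, with gall bladder at 47.3 FPKM and liver at 19.3. EA06872 would leave the set with TMM factors, at a ratio to liver of 1.63, and with DESeq2 size factors, at 1.54. EA08008 stood at 30.3 FPKM in kidney and 114 FPKM in intestine, with brain at 13.5 FPKM and ovary at 11.8. In the last 5 members, EA84399, EA80528, EA11155, EA13002 and EA09864, all 11 others reached 1 FPKM. EA13002 stood at 126 FPKM in kidney and 119 FPKM in intestine with gall bladder at 14.2 FPKM, and EA09864 at 163 FPKM in kidney and 45.2 FPKM in intestine with ovary at 20.8.

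The rule limits the level of the other organs but not which of them comes next. Gall bladder, the store of bile from the liver, was next for 16 members, or 38.1%, against 11.03% of the 8157 models with 5 FPKM in both organs. For those models the next organ is the highest of the other 11, which need not lie below kidney and intestine. Their median ratio of the lower organ to it was 0.383, so these shares compare unlike models. Liver was next for 5 members (11.9% against 1.03%) and slime gland for 5 (11.9% against 0.723%). Gills were next for 6 (14.3% against 13.5%). Ovary, the most frequent next organ of the 8157 models with 30.6%, was next for 1 member, 2.38%, and skin for none. The order depended on the scaling, since with TMM factors liver was next for 15 of the same 42 members and gall bladder for 10, against 15.4% and 5.76% of the 8157 models. With DESeq2 size factors these counts were 14 and 9, and with totals without the 10 highest models 14 and 12. With TMM factors or DESeq2 size factors 10 members left the set, and with totals without the 10 highest models 8. All of them but EA05074 had liver next there, among them *TYMP-2*, *DPP4* and EA58851. No member with gall bladder next on those scales left the set. Among the members kept, gall bladder was thus next more often than liver on each scale. In sets chosen anew on each scale, gall bladder was next for 13 models (TMM), 12 (DESeq2) and 12 (totals without the 10 highest models). How often liver was next in the sets chosen anew was not counted. No test was made of these shares, because the models compared were selected on the same values.

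Gall bladder reached 1 FPKM in 28 of the 42 members and 10 FPKM in 14. Gills reached 1 FPKM in 22 members, and liver and ovary in 20 each. No share over the 8157 models is given beside these counts, so they do not set the members apart. The median gap of the 16 members with gall bladder next was 4.12, from 2.28 in EA06872 to 271 in EA82853. Over all models, kidney resembled gall bladder more closely than intestine, with a correlation of log2(FPKM + 1) of 0.929 against 0.905, and intestine resembled gall bladder with 0.924. The same selection applied to kidney with gall bladder gave 35 models, to intestine with gall bladder 60 and to kidney with liver 33. Over all 78 pairs of organs it gave a median of 5 models, from 0 to 1325, and 6 pairs had more than kidney with intestine.

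The members lay on 15 chromosomes and on 1 scaffold not assigned to a chromosome here. 6 were on chromosome 4 (0.227% of its models) and 5 on chromosome 15 (0.365%). Chromosomes 1 (0.133%), 6 (0.188%) and 8 (0.190%) held 4 each. Position was not used by the rule. 15 members (35.7%) started within 1 Mb of another member and 9 (21.4%) within 100 kb. Of the 8157 models with 5 FPKM in both organs, a far larger set, 98.9% and 66.2% started that close to another of the set. 11 members formed 5 stretches of adjacent models, so that of 82 neighbouring positions 12 were taken by another member, or 14.6%, where members are 0.112% of all models. With each of the 3 other scalings, 7 of these 11 models stayed within the limits, and 3 of the 5 stretches lost at least 1 member. For the 8157 models, 38.8% of neighbouring positions were taken by another of that set, which is 21.7% of all models.

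The stretch on chromosome 15 joined the 3 models of highest level by the lower of the pair. EA84399 ran from 9918385 to 9981579 on the minus strand, EA82853 from 9981635 to 9982264 on the plus strand and EA83732 from 9982558 to 10081201 on the minus strand. The gaps between them were 55 and 293 bp. The models on either side, EA85072 and EA84100, stood at 0.0602 and 0 FPKM in kidney and at 0 in intestine. Reads were counted without regard to strand, so a transcript of one strand that ran into a neighbour would be counted there.

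On chromosome 6, EA05074 (2855984 to 2889658) and EA01443 (2890272 to 3024855) were 613 bp apart on the plus strand. EA05074 stood at 5.96 FPKM in kidney and 11.6 FPKM in intestine, the lowest kidney level of any member, and EA01443 at 90.7 FPKM in kidney and 68.2 FPKM in intestine. Slime gland was the next organ for both, with 2.19 and 12.4 FPKM. EA05074 left the set with each of the 3 other scalings, with a gap of 1.40 with TMM factors.

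On chromosome 8, EA66447 (124163286 to 124205288) and EA67091 (124208891 to 124224771) were 3602 bp apart on the plus strand. EA67091 stood at 61.3 FPKM in intestine and 19.9 FPKM in kidney, so both models of the pair were higher in intestine, and gall bladder was next for both. On chromosome 15, EA83043 (61721954 to 61727915) and EA85157 (61737986 to 61801512) were 10070 bp apart on the minus strand. EA85157 stood at 98.8 FPKM in intestine and 51.6 FPKM in kidney, with liver at 11.6 FPKM, while EA83043 was higher in kidney and had gall bladder next. EA85157 left the set with each of the 3 other scalings, with a ratio to liver of 0.997 with TMM factors, 0.949 with DESeq2 size factors and 1.55 with totals without the 10 highest models. Adjacent members thus shared their next organ in some stretches and not in others.

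**Figure D5:**
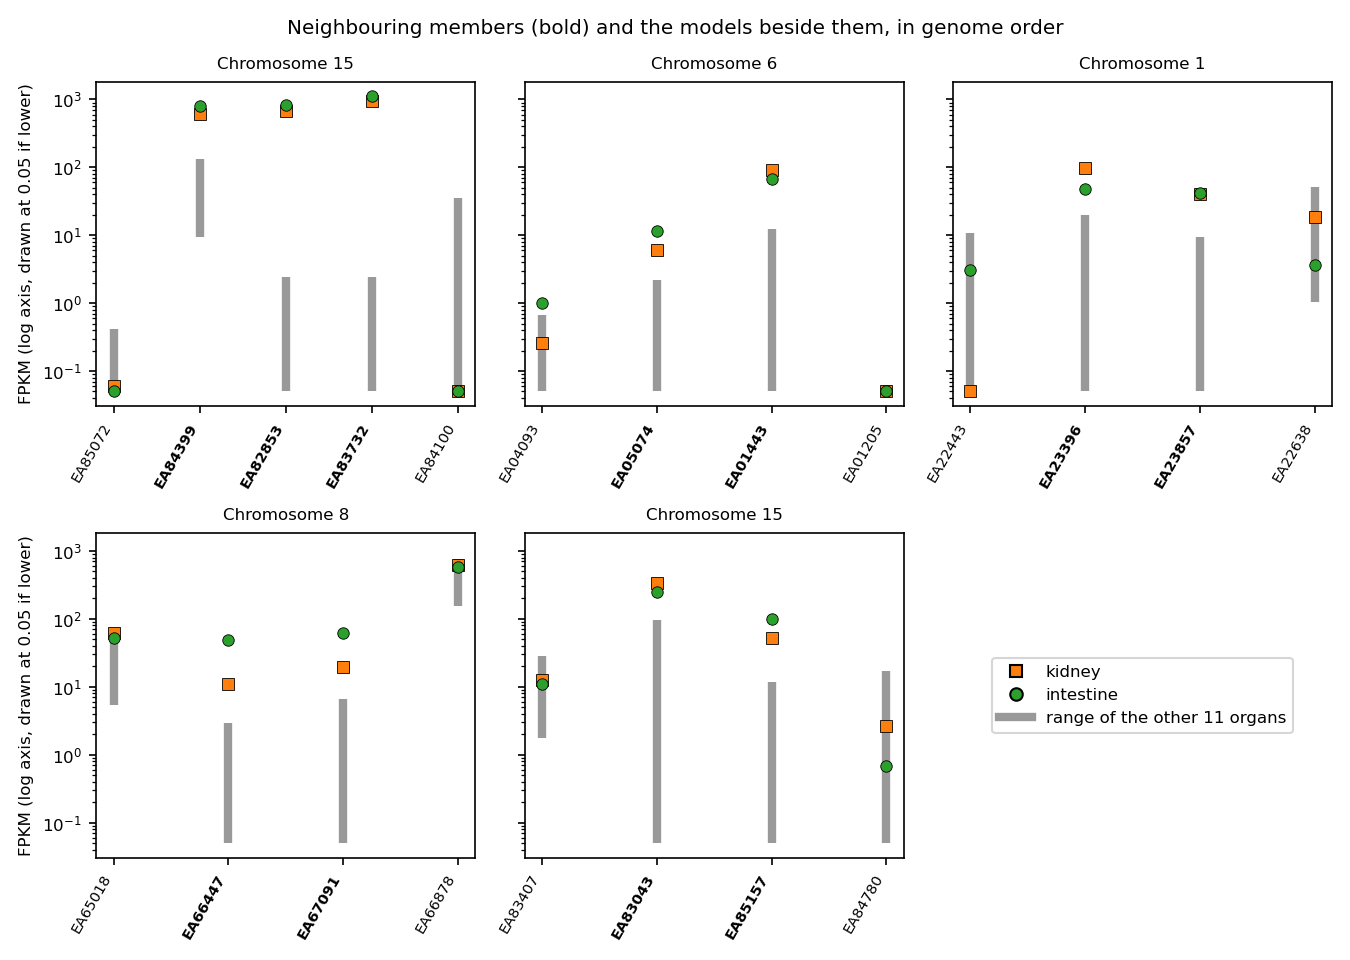
Levels (FPKM, log axis) in kidney (squares) and intestine (circles) and the range over the other 11 organs (grey bars) for the 5 stretches of adjacent members, with 1 panel per stretch, models in genome order and members in bold. Within the bold models both organs lie above the bar, and in the models at either end they do not, except the intestine level of EA04093, at 1.0002 FPKM.

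The models next to a member were mostly unlike it. Of 69 such models that were no members, 18 had at least 5 FPKM in both organs, 26.1% against 21.7% of all models. Both organs were above all others, at any level over 0, in 5 of the 69. Over all models 0.535% had both organs above all others at 1 FPKM or more, a stricter limit. EA80064, 25 bp from EA82011, stood at 24.3 FPKM in kidney and 13.9 FPKM in intestine with brain at 7.10 FPKM, just outside the fold limit. EA58671, 188 bp from EA60320, stood at 469 FPKM in intestine and 0.551 FPKM in kidney. EA13017, 19 bp from EA13002, stood at 3812 FPKM in kidney and 288 FPKM in intestine with 256 FPKM in gall bladder. EA36651, 46025 bp from EA36141, stood at 101 FPKM in kidney and 2.88 FPKM in intestine, the tilt to kidney seen in EA36141. The last 3 were named after their values were seen.

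In structure the members were close to other models with 5 FPKM in both organs. Their median exon length was 1622 bp against 1575 bp, and their median number of exons 6.5 against 8. The median span in the genome was 42201 bp against 41490 bp. 4 members, or 9.52%, had a single exon (EA82853, EA32973, EA60003 and EA19891), against 2.501%. 7 members overlapped another model, and no share over the other models is given beside this count. EA57885, over EA60003 on the opposite strand, stood at 11.4 FPKM in kidney and 6.81 FPKM in intestine, and the other overlapping models at no more than 1.33 FPKM in either.

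At the limits, membership turned on small differences. Just inside the fold limit stood EA52694 (2.09 times the next organ), EA09864 (2.17), *TYMP-2* (2.18), EA44634 (2.19) and EA08008 (2.25). Just outside stood EA07487 (1.97), EA80064 (1.95), EA85046 (1.94), EA65725 (1.92) and EA67284 (1.87). EA52694 stood at 77.3 FPKM in kidney and 29.3 FPKM in intestine with gills at 14.01 FPKM, while EA07487 stood at 211 FPKM in kidney and 129 FPKM in intestine with gall bladder at 65.3. Nearest the limit of 5 FPKM were EA05074 (5.96 FPKM), EA36141 (6.29) and EA51697 (7.01) inside, and EA13286 (3.19), EA36651 (2.88) and EA13643 (2.22) outside.

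Named genes with luminal and metabolic roles were read beside the members, from lists limited to chromosome 1. Over all models, 21.7% had at least 5 FPKM in both organs. Both organs were above all others, at 1 FPKM or more, in 0.535%, and this limit holds for the lists below. Lists of this size would hold few or no members at the overall share of 0.112%. Of 7 measured genes of the brush border and apical surface, 4 had at least 5 FPKM in both organs and 1, *DPP4*, was a member. *ST14*, a membrane-bound serine protease, stood at 34.0 FPKM in kidney and 39.2 FPKM in intestine but 56.8 FPKM in gills. *PDZK1-2*, named for a scaffold protein under the brush border that binds carriers, stood at 188.7 FPKM in kidney and 11.9 FPKM in intestine, with gall bladder at 51.2 FPKM.

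Of 21 measured carriers, channels and pumps, 11 had at least 5 FPKM in both organs and none was a member or had both organs above all others. *ATP6V1A*, a subunit of the vacuolar proton pump, stood at 93.8 FPKM in kidney and 261 FPKM in intestine, but at 215 FPKM in the adipose-labelled library. *SLC39A9*, of a family of zinc carriers, stood at 71.7 FPKM in kidney and 35.4 FPKM in intestine with 58.0 FPKM in blood cells. *SFXN2*, a mitochondrial carrier, stood at 49.6 FPKM in kidney and 27.8 FPKM in intestine with 91.7 FPKM in gall bladder. *MFSD1-1*, named for a lysosomal carrier, stood at 299 FPKM in kidney and 23.5 FPKM in intestine with 113 FPKM in ovary.

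Of 31 measured metabolic enzymes, 20 had at least 5 FPKM in both organs, and *TYMP-2* was the member. Both organs were above all others in 3 of them, *TYMP-2*, *GPX2* and *IDH1*. *GPX2*, a glutathione peroxidase known from the mammalian gut, stood at 2019.6 FPKM in kidney and 799.8 FPKM in intestine, with gall bladder at 626 FPKM. *IDH1*, the cytosolic isocitrate dehydrogenase, stood at 149 FPKM in kidney and 72.6 FPKM in intestine, with skin at 56.2 FPKM. *GSTT2B*, a glutathione transferase, was at 491.5 FPKM in kidney and 3476 FPKM in intestine but at 5821 FPKM in skin, and *ACADVL*, of fatty acid oxidation, at 82.9 FPKM in kidney and 82.6 FPKM in intestine with 97.3 FPKM in ovary.

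For each gene of these lists the log2 ratio of the lower organ plus 1 FPKM to the highest other organ plus 1 FPKM was taken. Its median was -2.02 for the brush border, -2.09 for the carriers and -1.82 for the enzymes, against -1.73 over all models. The lists as a whole thus lay near all models in this measure, and the members were single genes within them. The reference is unlike the lists, since only 21.7% of all models had at least 5 FPKM in both organs. A reference of named models alone was not taken.

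Kidney and intestine also held markers of other tissues. The summed level of 3 connective tissue markers was 51.3 FPKM in kidney and 199 FPKM in intestine, within a range of 2.07 to 314 FPKM over all 13 organs. *DPT-1* made up 185.5 FPKM of the intestine sum, against 2.81 FPKM in kidney, and stood at 38.5 FPKM in blood cells. *DCN* went the other way, at 48.1 FPKM in kidney and 11.97 FPKM in intestine. The sum therefore does not rank the 2 organs by connective tissue. For 4 blood markers the sum was 41.2 FPKM in kidney and 52.1 FPKM in intestine, against 185 FPKM in blood cells and 266 FPKM in gills. *LYL1-1* made up 170.9 FPKM of the sum in blood cells, and *GATA2-2* 192.7 FPKM of that in gills. *TAL1* and *LYL1-1* were lower in both organs than in blood cells. *GATA2-2* was higher in kidney (9.92 FPKM) than in blood cells (8.77 FPKM). *WAS-2* was higher in kidney (8.47 FPKM) and intestine (8.25 FPKM) than in blood cells (4.67 FPKM). For 3 neuronal markers the sum was 25.8 FPKM in kidney and 110.5 FPKM in intestine, against 1045 FPKM in brain. Of these sums, *RAB3A-2* made up 23.2 FPKM in kidney and 109 FPKM in intestine, and it was higher in gills, at 124 FPKM, than in brain, at 44.5 FPKM. *NEFM* and *AVP*, with 899 and 101.5 FPKM in brain, stood at no more than 2.33 FPKM in kidney and 0.913 FPKM in intestine. The 3 liver markers summed to 2.07 FPKM in kidney and 2.89 FPKM in intestine, against 7718 FPKM in liver, of which *SERPINF1-3* held 7621 FPKM. The liver marker *F5* went the other way, at 0.223 FPKM in liver, 0.600 FPKM in kidney and 1.76 FPKM in intestine. The 3 intestine markers summed to 2.61 FPKM in kidney and the 2 kidney tubule markers to 11.9 FPKM in intestine, all of it *PDZK1-2*, while *MIOX* was at 0 there. The single smooth muscle marker measured, *LMOD1*, was at 12.5 FPKM in kidney and 6.27 FPKM in intestine, against 72.2 FPKM in gall bladder. The 3 markers of keratinised epithelium summed to 9.06 FPKM in kidney and 0.736 FPKM in intestine, against 1.595 FPKM in skin. Of the kidney sum, *KRT5-1* made up 7.76 FPKM, and it was at 0 in skin. With kidney above skin, this sum gives no measure of keratinised tissue in kidney. The part of the other tissues in the members' levels was not tested.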

How the data were processed

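RNA from 13 organs, with 1 library each, was sequenced in strand-specific paired libraries. STAR (2.5.2b) was the aligner the authors used, and they deposited raw counts per gene model over exons from featureCounts (1.6.1 in the header of the table), with no normalization and without paired or strand counting. Of the counts from 1 to 4, 83.6% were even, so pairs of counts were used for intervals. The exon length (bp) is the other value deposited with the counts. The table had 0 columns that could not be assigned to a sample. The genome build is the study's own assembly. Reads that match several places are left out by default, so near-identical copies are uncertain.

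FPKM was the count divided by the column total and the exon length. Members were chosen by the limits given above. The members and the gene lists were chosen with earlier results of these data known. Ratios and shares have exact Clopper-Pearson intervals (95%), which cover counting error only, and a count of 3 was the floor. The selection was run on simulated counts with planted models, which checks only how the rule was coded. All simulated organs had the same profile apart from the planted models, so this does not bear on the scaling of real libraries.

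Genes named were all members with a symbol, family or domain in the study's source tables, the 12 of highest lower level, the 4 of largest gap, the 5 most tilted to each organ, members under 100 kb from another, the models next to the limits (5 at the fold limit, 3 at 5 FPKM on each side) and the 4 highest of each list. Other members are given by group. The values of 1 listed gene are not reported here. These tables gave names and positions only.

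Alternatives were totals without the 10 highest models, TMM factors (edgeR 4.0.16), DESeq2 (1.42.0) size factors, other limits, and leaving out an organ. Calculations ran in Python 3.11.15 (pandas 2.3.3, scipy 1.17.1, numpy 2.4.6, matplotlib 3.10.9) and R 4.3.3.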

Additional observations from a re-analysis of the deposited data

How the results depend on the processing

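The number of members, 42, stayed at 42 with TMM factors and DESeq2 size factors, though 10 of them were replaced by 10 others, and was 38 with totals without the 10 highest models. It moved to 69 with a fold limit of 1.5, to 27 with a limit of 3 and to 102 without gall bladder. Members higher in kidney (21) numbered 38, 10 and 52 in these 3 settings. Members within 1 Mb of another (15) numbered 27, 7 and 37, and 9 at 100 kb. With a limit of 1.5, gall bladder was the next organ for 28 in place of 16. The median log2 ratio of kidney to intestine, 0.032, was -0.0859 with TMM factors, -0.0702 with DESeq2 size factors, -0.0147 with totals without the 10 highest models, 0.19 with a limit of 1.5 and -0.40 with a limit of 3. It was -0.13 at 1 FPKM and with no minimum beyond 10 counts, -0.0191 at 10 FPKM, 0.0861 without gall bladder, 0.0830 without gills and 0.0210 without blood cells. The other 43 values were counts within 1.5 times those reported, and the median, which was unchanged without liver or the adipose-labelled library. TMM factors shifted kidney by -0.36 and liver by 1.80 on the log2 scale, and the cause of the shifts in the median was not tested. No paired analysis was possible because each organ had 1 library.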

Other observations

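Gall bladder, most often the next organ of the members with the totals of assigned counts, also held transcripts shared by all 3 organs. With the 3 other scalings liver was next for more of the same members than gall bladder. Nearly all members that left the set on those scales had liver next, and none had gall bladder next. Among the members that stayed, gall bladder was next more often than liver on each scale. When gall bladder was left out of the comparison, 60 further gene models, of 37562, met the same limits in kidney and intestine. Leaving out liver added 8, gills 7, blood cells 5 and the adipose-labelled library 0. A model joins only if gall bladder alone kept it out, so a raised gall bladder level follows from the rule. In 14 of the 60 gall bladder was above both organs, in 20 it lay between them and in 26 below both.

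The following models were chosen after their values were seen. EA27026, on chromosome 5 from 68292176 to 68335555, stood at 4110.2 FPKM in kidney, 3519.9 FPKM in intestine and 3245 FPKM in gall bladder, with no other organ above the 237.5 FPKM of liver. EA75434, on chromosome 3 from 65146230 to 65158136, stood at 194 FPKM in kidney, 374 FPKM in intestine and 610.4 FPKM in gall bladder, and the other 10 organs reached at most 1.10 FPKM. Both were transcripts of the 3 organs rather than of kidney and intestine alone.

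*MYO15A-1* and *MYO15A-3*, named for an unconventional myosin of cell protrusions known from the hair cells of the mammalian ear, lie on chromosome 1 from 7746688 to 7998640 and from 7594536 to 7721454. *MYO15A-1* stood at 166 FPKM in kidney, 95.6 FPKM in intestine and 109.8 FPKM in gall bladder, against at most 2.54 FPKM elsewhere. *MYO15A-3* stood at 27.5 FPKM in kidney, 12.3 FPKM in intestine and 16.1 FPKM in gall bladder, against at most 1.15 FPKM elsewhere. *PLSCR1-1*, of the phospholipid scramblase family, stood at 62.1 FPKM in kidney, 96.8 FPKM in intestine and 50.9 FPKM in gall bladder, with 12.7 FPKM in tongue muscle. *MIA2* belongs to a family that acts in the export of large cargo from the endoplasmic reticulum. It stood at 30.5 FPKM in kidney, 10.3 FPKM in intestine and 24.3 FPKM in gall bladder, with 2.55 FPKM in liver. These levels chose the models, so no test was made. TMM factors raise liver by 1.80 and tongue muscle by 1.64 on the log2 scale, so the ratios to these organs would be lower. Whether the 60 models stay within the limits on the other scalings was not tested.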
